A study of Mus musculus with 6 samples.

Results

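The genes described here are 41 mouse genes of mitosis and the spindle checkpoint, chosen by symbol from a fixed list and found in the count table by RefSeq accession. Of the 41 genes, 38 had a row among the 13177 rows of the table, 1 row each, and Birc5, Cdca8 and Espl1 were not matched. The 38 rows were measured in 6 RNA-seq libraries, in groups of 3, made from helper T lymphocytes (CD4+) of mice. Controls were labelled as the 0 h time point and the others as 8 h, which the series' design text describes as harvest after transfection of bead-purified cells with a synthetic form of the microRNA miR-155, a regulator in activated lymphocytes. The treatment label names that oligo in both groups, and neither strain, age nor genotype is given, nor an 8 h sample without it, so time and exposure cannot be told apart. The labels do not say whether replicates came from separate animals or cultures, so p-values measure only the spread between these libraries, which may be technical. The source label of the 8 h samples reads CD4+ and their description CD5+.

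Mitosis is driven by cyclin-dependent kinase 1 bound to A- and B-type cyclins, with Polo-like and Aurora kinases acting on centrosomes, kinetochores and the central spindle. The spindle checkpoint holds back the anaphase-promoting complex until every kinetochore is attached, after which securin and cyclin B are degraded and sister chromatids part. Most of these genes are transcribed periodically, peaking in G2 and M phase, so resting T cells express little of them and T cells dividing after activation express much.

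Library depth ran from 4564010 to 13675127 counts, and the median row had 10 to 30 counts. Among the helper T cell markers Cd4 had 5 to 10 counts in every library, whereas Cd5 had 3020 to 27651. Actb and Gapdh, which cells express at high levels, had at most 5 and 11 counts, so it is uncertain that rows hold ordinary counts per gene. The 17 helper T cell markers with a row summed to 3438 to 20485 CPM (the usual library-size unit of counts, scaled by the trimmed mean of M values, TMM) in controls and 6384 to 12440.5 CPM at 8 h. Cytotoxic and natural killer markers (9 of 11 with a row) summed to 1306 to 4759 CPM in controls and 233 to 425 CPM at 8 h. Myeloid markers (12 of 13) summed to 66.4 to 199.9 CPM and 16.5 to 63.1 CPM, erythroid and platelet markers (10 of 11) to 40.9 to 157 CPM and 9.56 to 54.9 CPM. B cell markers (9 of 9) summed to 85.5 to 113 CPM and 49.7 to 156 CPM, and the 2 CD8 markers to 7.44 to 37.8 CPM and 11.3 to 59.8 CPM. No marker with a row was at 0 in all 6 libraries. Cytotoxic and myeloid markers thus summed lower in every 8 h library than in any control, and their part in the results below was not tested. Single rows could make up much of a sum, such as Gzmb at 4465 CPM in control replicate 1. The markers of a list did not all go the same way. Fitted fold changes of 8 h over control were below 0 for 6 and above 0 for 3 of 9 tested cytotoxic markers. For the 7 tested myeloid markers, 5 were below 0 and 2 above. In these bulk samples fewer cells of a type and less RNA per cell cannot be told apart.

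The mitosis genes of this list had higher values at 8 h more often than lower ones, but no single gene passed the test. The largest positive fold changes were those of the kinases Plk1, Ttk and Aurka, the cyclin Ccnb2 and the contractile ring protein Anln. The list was chosen with earlier results of these data known. Of 51 further mitosis genes tested, described below, 30 had a fitted fold change above 0, near the share of all tested rows. Of the 38 listed genes with a row, 30 had a higher mean CPM at 8 h, against 52.6% of all 13177 rows. The filter on low counts kept 29 of the 38, and 23 of the 29 had a fitted log2 fold change of 8 h over control (called the log2 ratio below) above 0, against 51.3% of the 8308 rows tested. The median log2 ratio was 1.46 over the 29 genes and 0.06 over all tested rows. A gene could pass the filter through the group in which it was high, so these figures describe the list and carry no test. In edgeR's quasi-likelihood test 0 of the 29 genes passed an adjusted p of 0.05, as 0% of all tested rows did, with adjusted p values between 0.456 and 0.993. At an unadjusted p under 0.05 there were 3 genes with higher values at 8 h, Plk1, Anln and Ttk, against 4.51% of all tested rows, and 0 with lower values, against 4.02%. DESeq2's Wald test, an alternative, gave an adjusted p for 20 of the 29 genes and called the same 3, all higher at 8 h, against 2.94% of the rows it assessed. It called 0 of the 20 as lower, against 3.11%. Limma-voom and the other form of edgeR's quasi-likelihood fit called 0.

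**Figure D1:**
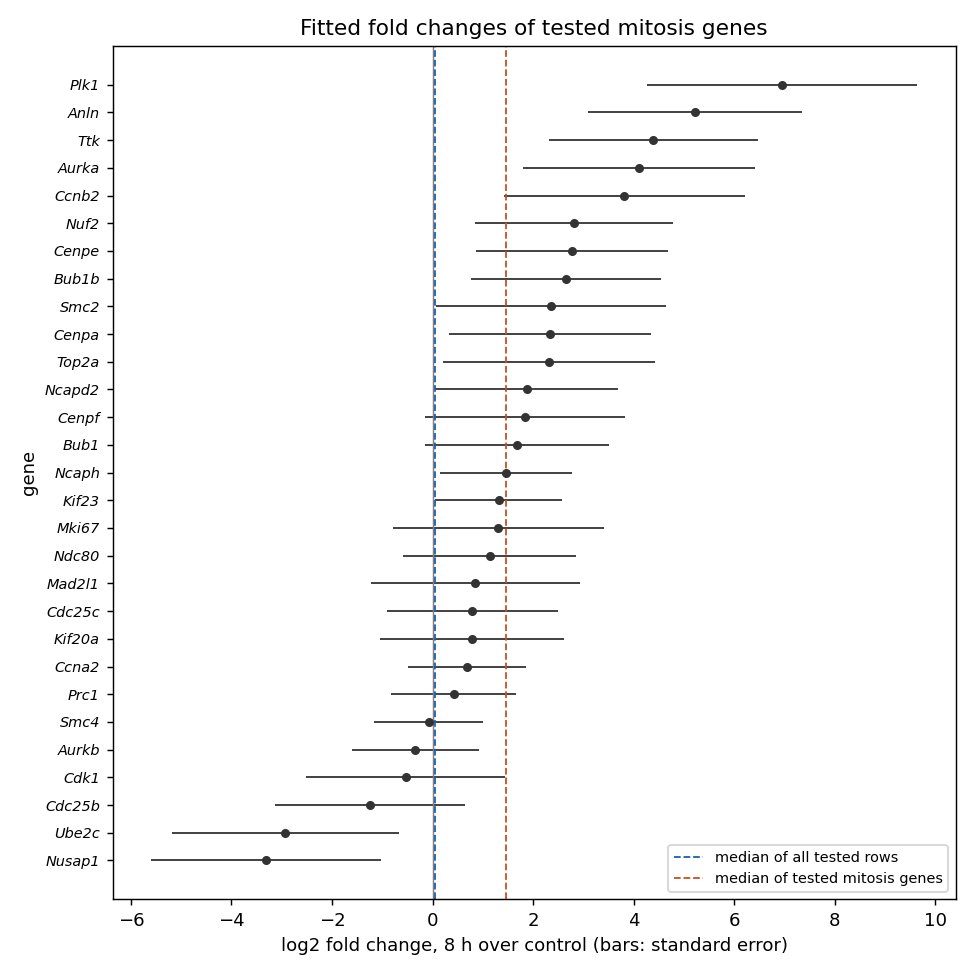
Fitted log2 fold change (8 h over control, x axis) of each of the 29 tested mitosis genes (y axis), with bars of 1 standard error and dashed lines at the median of all tested rows (0.06) and of these genes (1.46). The values run from -3.31 for Nusap1 to 6.95 for Plk1, with 23 of them above 0.

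The fitted differences covered a wide range, and their errors were wide too. A log2 ratio above 2 was fitted for 11 of the 29 genes (15.9% of all tested rows) and one below -2 for 2 of them, Ube2c and Nusap1 (15.1% of all tested rows). Standard errors on the log2 scale ran from 1.09 to 2.69, with a median of 1.96. Within a group the highest of the 3 libraries exceeded the lowest by a median of 9.93 times in controls and 9.05 times at 8 h over the 29 genes. The same medians over tested rows without a 0 were 9.83 and 10.4, close to the values of the mitosis genes. All 3 libraries of the 8 h group lay above all 3 controls for Plk1, Ttk and the condensin subunit Ncaph, 3 of 29 against 5.72% of tested rows. No tested gene of the list had all 8 h libraries below the controls, against 5.08%. Over all 38 rows the higher count was 4, with Bub3 added, against 5.78% of all rows, and the lower count 0, against 4.97%.

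Promoter sequence is a property of the chosen genes and was not measured in these libraries. Genes of G2 and M phase are known for promoters with CCAAT boxes, bound by NF-Y, and a cell cycle homology region, bound by the DREAM and MuvB complexes. A high share of these motifs in a list of mitosis genes therefore says nothing about a difference between the groups. RefSeq windows from 250 bases before to 50 bases after the start of transcription (GRCm38.p6) were found for 34 of the 41 genes. CCAAT, on either strand, was in the window of 25 of the 34 genes (73.5%), against 41.1% of the 27025 genes with a window and 42.3% of 6459 tested genes. TTTGAA, on either strand, was in 24 of the 34 (70.6%), against 20.2% and 15.5%. Both were present in 21 of the 34 (61.8%), against 7.97% and 6.46%. The motifs can share letters where they adjoin, as in Cdca8, and a match is a description of these letters, not a bound site. The windows of 4 of the genes with the largest positive fold changes and of both genes with a fold change below -2 are shown as examples. The window of Aurka, whose fold change was above that of Ccnb2, held 2 CCAAT and 1 TTTGAA and is not shown. They are written 5′ to 3′ on the strand of the gene, with CCAAT and TTTGAA or their reverse complements in capitals.
Plk1 (chr7:122159185-122159484, plus strand): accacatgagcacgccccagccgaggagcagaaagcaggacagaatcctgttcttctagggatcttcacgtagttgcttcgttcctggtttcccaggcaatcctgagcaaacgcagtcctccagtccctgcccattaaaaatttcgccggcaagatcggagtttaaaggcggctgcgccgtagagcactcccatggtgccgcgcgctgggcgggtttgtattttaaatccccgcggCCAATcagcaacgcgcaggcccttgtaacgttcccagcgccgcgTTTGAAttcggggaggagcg
Ccnb2 (chr9:70421505-70421804, minus strand): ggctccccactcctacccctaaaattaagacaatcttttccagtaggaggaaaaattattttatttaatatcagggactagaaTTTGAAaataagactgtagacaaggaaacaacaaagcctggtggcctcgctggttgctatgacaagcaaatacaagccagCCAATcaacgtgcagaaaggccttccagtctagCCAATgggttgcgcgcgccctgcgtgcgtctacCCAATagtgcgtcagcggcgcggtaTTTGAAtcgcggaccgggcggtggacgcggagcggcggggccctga
Ttk (chr9:83834439-83834738, plus strand): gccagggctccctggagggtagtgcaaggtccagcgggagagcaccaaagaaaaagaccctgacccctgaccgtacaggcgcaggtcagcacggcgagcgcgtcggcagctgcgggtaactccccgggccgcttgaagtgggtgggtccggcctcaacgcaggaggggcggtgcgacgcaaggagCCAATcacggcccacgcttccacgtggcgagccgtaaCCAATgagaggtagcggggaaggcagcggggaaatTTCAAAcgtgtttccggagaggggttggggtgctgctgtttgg
Anln (chr9:22389157-22389456, minus strand): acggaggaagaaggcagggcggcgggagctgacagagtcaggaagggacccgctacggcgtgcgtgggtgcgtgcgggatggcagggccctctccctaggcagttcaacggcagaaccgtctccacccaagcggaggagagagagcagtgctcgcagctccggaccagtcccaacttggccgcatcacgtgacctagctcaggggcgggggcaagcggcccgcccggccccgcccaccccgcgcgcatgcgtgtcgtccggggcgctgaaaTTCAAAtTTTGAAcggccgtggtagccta
Ube2c (chr2:164769679-164769978, plus strand): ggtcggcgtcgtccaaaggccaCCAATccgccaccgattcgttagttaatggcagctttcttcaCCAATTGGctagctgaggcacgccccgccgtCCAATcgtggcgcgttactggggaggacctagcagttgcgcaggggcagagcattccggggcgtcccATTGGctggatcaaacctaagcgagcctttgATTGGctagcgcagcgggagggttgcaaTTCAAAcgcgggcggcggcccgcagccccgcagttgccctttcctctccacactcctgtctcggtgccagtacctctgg
Nusap1 (chr2:119618048-119618347, plus strand): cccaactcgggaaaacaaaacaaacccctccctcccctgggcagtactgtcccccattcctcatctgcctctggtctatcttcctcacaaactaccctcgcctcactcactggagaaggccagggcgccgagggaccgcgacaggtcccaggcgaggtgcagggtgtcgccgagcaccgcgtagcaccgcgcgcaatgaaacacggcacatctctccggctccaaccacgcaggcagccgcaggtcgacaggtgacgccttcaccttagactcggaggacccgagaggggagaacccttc
Plk1 held 1 CCAAT and 1 TTTGAA, Ccnb2 held 3 and 2, and Ttk 2 and 1. Anln held 2 TTTGAA matches and no CCAAT. Ube2c, with lower fitted values at 8 h, held 6 CCAAT and 1 TTTGAA, and Nusap1 held neither in this window. The motifs were therefore present on both sides of the fold change axis.

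**Figure D2:**
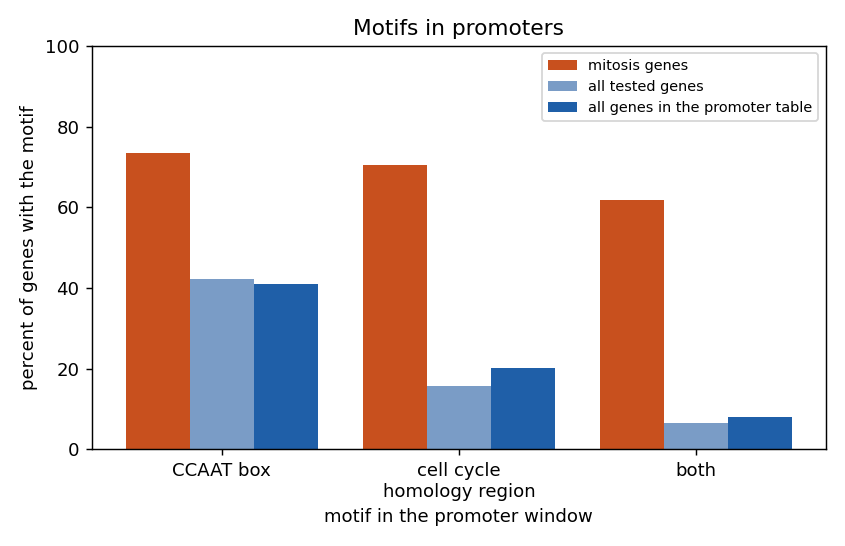
Percent of genes (y axis, from 0) whose promoter window holds the CCAAT box, the cell cycle homology region or both (x axis), for the mitosis genes, for all tested genes and for all genes with a window. Both motifs together stand at 61.8% in the mitosis genes and 7.97% in all genes with a window.

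The kinases and cyclins of mitotic entry ranged from the highest log2 ratio of the list, that of Plk1, to values below 0, with a median of 0.79 over 7 tested genes. Plk1, the Polo-like kinase of spindle assembly and mitotic entry (chromosome 7, 122159435 to 122169884, GRCm38), was counted 10, 55 and 127 times in the controls, in the order of replicates 1 to 3, against 2778, 18453 and 8950 times after 8 h. The groups did not overlap, and the 8 h libraries lay at 321 CPM or more and the controls at 11.4 CPM or less. Mean levels were 7.98 ± 5.39 CPM (controls, SD, n = 3) and 989 ± 580 CPM (8 h, SD, n = 3), and its log2 ratio 6.95 ± 2.69 (SE; edgeR adjusted p = 0.456, DESeq2 adjusted p = 0.000105). Leaving out any 1 library kept the log2 ratio between 6.47 and 7.36.

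Ccnb2, cyclin B2, which activates Cdk1 (chromosome 9, 70407689 to 70421554), was counted 300, 551 and 2128 times in the controls against 509, 48641 and 9004 times after 8 h. Replicates 2 and 3 at 8 h stood above every control, and replicate 1, at 58.8 CPM, lay within the control range of 52.8 to 191 CPM. The log2 ratio was 3.81 ± 2.40 (SE; edgeR adjusted p = 0.655) and 2.52 without 8 h replicate 2. Aurka, the Aurora kinase of centrosome maturation (chromosome 2, 172356190 to 172370886), was counted 33, 585 and 96 times in the controls against 52, 7996 and 11275 times after 8 h. It had the same split, with 8 h replicate 1 at 6.01 CPM beside 593 and 1609 CPM in the other two libraries. The fitted log2 ratio was 4.10 ± 2.31 (SE; edgeR adjusted p = 0.621), 6.67 without control replicate 2 and 2.80 without 8 h replicate 3.

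Cdk1, the kinase that these cyclins activate (chromosome 10, 69335146 to 69352912), did not share this difference. It was counted 972, 3119 and 1513 times in the controls against 824, 3033 and 2190 times after 8 h, which gave a log2 ratio of -0.54 ± 1.97 (SE), which was 0.46 without control replicate 2. The phosphatase Cdc25b, which activates Cdk1, stood at a log2 ratio of -1.25 ± 1.89 (SE), and at 0.76 without control replicate 2. Its relative Cdc25c had one of 0.79 ± 1.70 (SE), and -2.06 without 8 h replicate 3. Cyclin A2 (Ccna2) had 2 to 25 counts in any library and a log2 ratio of 0.68 ± 1.17 (SE), with 0.24 to 1.23 over left-out libraries (lowest without control replicate 1, highest without control replicate 2). Ccnb1, cyclin B1, was counted 0, 0 and 1 times in the controls against 1, 1 and 0 times after 8 h, and was not tested.

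**Figure D3:**
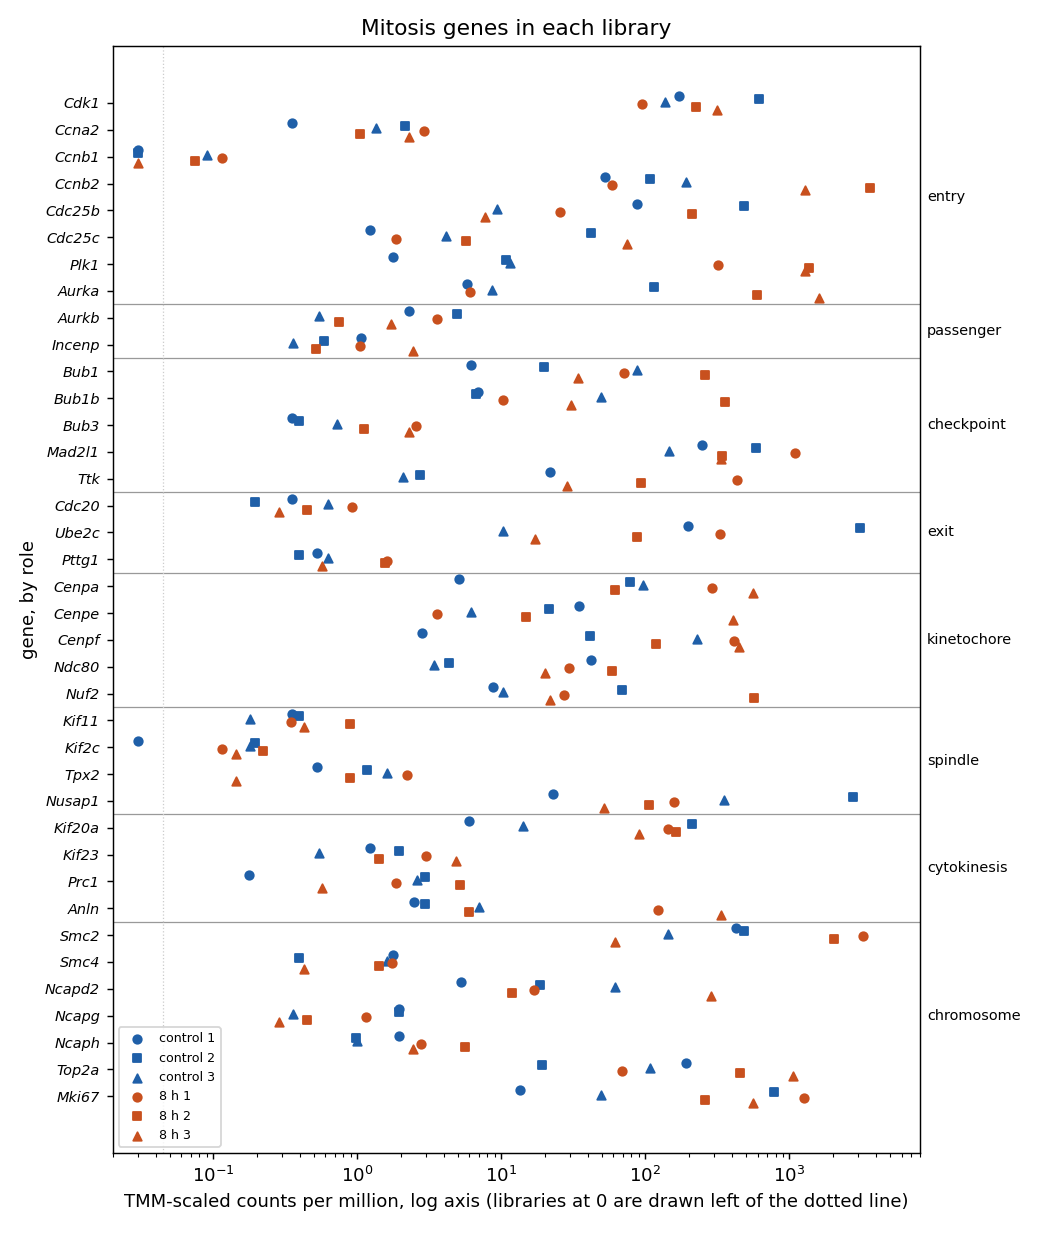
TMM-scaled CPM on a log x axis for the 38 mitosis genes with a row (y axis, ordered by role), with 1 point per library, blue for controls and orange for 8 h. Plk1 separates the groups, while Ccnb1 stays at or below 0.116 CPM in every library and Ube2c spans 10.3 to 3075 CPM within the controls.

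The spindle checkpoint genes had positive fold changes in 4 of 4 tested members, against 51.3% of all tested rows, and groups without overlap in 1 of the 4, against 5.72%. Ttk, the kinase Mps1 that starts checkpoint signalling at the kinetochore (chromosome 9, 83834651 to 83872390), was counted 123, 14 and 23 times in the controls against 3736, 1264 and 200 times after 8 h. The lowest 8 h library, at 28.5 CPM, lay just above the highest control, at 21.6 CPM. Mean levels were 8.82 ± 11.1 CPM (controls, SD, n = 3) and 185 ± 217 CPM (8 h, SD, n = 3), giving a log2 ratio of 4.39 ± 2.08 (SE; edgeR adjusted p = 0.544, DESeq2 adjusted p = 0.0367), 2.79 without 8 h replicate 1 and 6.26 without control replicate 1.

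Bub1b, the checkpoint protein BubR1 (chromosome 2, 118598202 to 118641592), was counted 39, 34 and 545 times in the controls against 89, 4785 and 214 times after 8 h. A single 8 h library, replicate 2 at 355 CPM, stood above the controls, and the log2 ratio of 2.66 ± 1.89 (SE) became -0.03 without it. Its kinase relative Bub1 stood at a log2 ratio of 1.68 ± 1.83 (SE), at 0.47 without 8 h replicate 2 and at 3.22 without control replicate 3. Mad2l1, the checkpoint effector Mad2, was abundant in both groups, at 1399, 3014 and 1634 counts for the controls against 9458, 4610 and 2361 after 8 h. Its log2 ratio was 0.85 ± 2.07 (SE), 0.05 without 8 h replicate 1 and 1.59 without control replicate 2. Bub3, the WD40 partner of Bub1 and BubR1, was counted 2, 2 and 8 times in the controls against 22, 15 and 16 times after 8 h. Its 8 h libraries all lay above the controls, at 1.11 to 2.54 CPM against 0.352 to 0.719 CPM, but the counts were under the filter.

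Genes of the centromere and outer kinetochore had positive fold changes in 5 of 5 tested members, against 51.3% of all tested rows. The groups overlapped for every member, whereas 5.72% of tested rows had all 8 h libraries above the controls and 5.08% below. Cenpa, the histone H3 variant of centromeres, was counted 29, 402 and 1075 times in the controls against 2526, 833 and 3917 times after 8 h, which gave a log2 ratio of 2.34 ± 2.01 (SE), and 1.56 once 8 h replicate 3 was omitted. Replicates 1 and 3 at 8 h exceeded every control, and replicate 2 lay among them. Cenpf, a kinetochore protein that accumulates in G2, was counted 16, 212 and 2542 times in the controls against 3546, 1596 and 3112 times after 8 h. Its control libraries spanned 81.1 times on the CPM scale and its 8 h libraries 3.75 times, and its log2 ratio was 1.83 ± 1.99 (SE), between 1.26 (control replicate 1 left out) and 3.87 (control replicate 3 left out).

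Cenpe, the kinetochore kinesin (chromosome 3, 135212563 to 135273540), was counted 197, 109 and 68 times in the controls against 31, 201 and 2848 times after 8 h. The fitted log2 ratio of 2.77 ± 1.90 (SE) rested on 8 h replicate 3 and was -1.16 without it. Nuf2, a subunit of the Ndc80 complex that binds microtubules (chromosome 1, 169497934 to 169531464), was counted 50, 350 and 114 times in the controls against 237, 7653 and 152 times after 8 h. Its log2 ratio of 2.82 ± 1.96 (SE) was -0.25 without 8 h replicate 2. Ndc80 itself was counted 237, 22 and 38 times in the controls against 256, 791 and 141 times after 8 h, which gave a log2 ratio of 1.13 ± 1.72 (SE), 3.22 without control replicate 1 and 0.59 without 8 h replicate 2.

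The lowest log2 ratios of the list were those of Ube2c and Nusap1, the only tested genes of anaphase onset and of the spindle, and both values depended on control replicate 2. Ube2c, the ubiquitin-conjugating enzyme of the anaphase-promoting complex (chromosome 2, 164769929 to 164772902), was counted 1129, 15708 and 115 times in the controls against 2832, 1182 and 120 times after 8 h. Control replicate 2 stood at 3075 CPM, while the other 5 libraries lay between 10.3 and 327 CPM. The fitted log2 ratio of -2.93 ± 2.26 (SE; edgeR adjusted p = 0.733) became 0.46 without that library. Nusap1, a microtubule-bundling protein of the spindle (chromosome 2, 119618298 to 119650165), was counted 130, 14064 and 3934 times in the controls against 1364, 1419 and 362 times after 8 h. Its log2 ratio was -3.31 ± 2.29 (SE; edgeR adjusted p = 0.690), and -0.84 without control replicate 2.

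The other genes of anaphase onset and the spindle had few counts, with the higher mean at 8 h for Cdc20, Pttg1, Kif11 and Kif2c and the lower for Tpx2. Cdc20, the activator of the anaphase-promoting complex, had 1 to 8 counts per library, and securin (Pttg1) had 2 to 21. Kif11, the kinesin that separates spindle poles, had 2 to 12 counts, Kif2c, a microtubule depolymerase, 0 to 3, and Tpx2, which activates Aurka, 1 to 19. The 9 genes under the filter, which also held Ccnb1, Incenp, Bub3 and the condensin subunit Ncapg, had 0 to 22 counts in any library. Their mean over the 6 libraries lay between 0.0466 and 1.23 CPM, and 7 of the 9 had the higher mean at 8 h, against 52.6% of all rows. Of the chromosomal passenger complex, which corrects attachments at the centromere, Aurkb had 6 to 31 counts with a log2 ratio of -0.34 ± 1.26 (SE). That value was 0.53 without control replicate 2 and 0.06 without 8 h replicate 2. Incenp, its scaffold, had 3 to 17 counts.

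Cytokinesis genes had positive fold changes in 4 of 4 tested members, against 51.3% of all tested rows. Anln, anillin of the contractile ring (chromosome 9, 22331214 to 22389211), was counted 14, 15 and 78 times in the controls against 1059, 80 and 2349 times after 8 h. Replicates 1 and 3 at 8 h, at 122 and 335 CPM, were far above the controls, and replicate 2, at 5.93 CPM, lay below control replicate 3, at 7.01 CPM. The fitted log2 ratio was 5.21 ± 2.13 (SE; edgeR adjusted p = 0.496, DESeq2 adjusted p = 0.00696), and 3.95 without 8 h replicate 3. Kif20a, a kinesin of the central spindle, was counted 34, 1074 and 157 times in the controls against 1240, 2213 and 635 times after 8 h, which gave a log2 ratio of 0.79 ± 1.83 (SE). Leaving out 1 library moved it between 0.25 (control replicate 1) and 3.72 (control replicate 2), and it was 0.30 without control replicate 3. The central spindle kinesin Kif23 had 6 to 34 counts and a log2 ratio of 1.32 ± 1.26 (SE), and 0.84 if 8 h replicate 3 was omitted. Prc1, which bundles central spindle microtubules, had 1 to 70 counts and a log2 ratio of 0.42 ± 1.24 (SE), turning to -0.65 when 8 h replicate 2 was left out and to -0.11 when control replicate 1 was.

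Genes of mitotic chromosome structure had positive fold changes in 5 of 6 tested members, against 51.3% of all tested rows. Smc2, an ATPase core subunit of condensin (chromosome 4, 52439221 to 52488365), was counted 2398, 2452 and 1606 times in the controls against 28002, 27696 and 429 times after 8 h. Its 3 controls were comparatively even, at 144 to 480 CPM, whereas the 8 h group held both the highest libraries and the lowest one, at 61.2 CPM. The log2 ratio was 2.35 ± 2.28 (SE). Mki67, the proliferation antigen Ki-67 that coats mitotic chromosomes (chromosome 7, 135689784 to 135716450), was counted 76, 3963 and 548 times in the controls against 10839, 3512 and 3926 times after 8 h. Control replicate 2, at 776 CPM, lay within the 8 h range of 260 to 1253 CPM, and the log2 ratio of 1.31 ± 2.10 (SE) was 4.46 without that library and 0.55 without 8 h replicate 1.

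Top2a, the topoisomerase that untangles sister chromatids, was counted 1082, 98 and 1201 times in the controls against 595, 6103 and 7412 times after 8 h, which gave a log2 ratio of 2.31 ± 2.10 (SE). The value lay between 1.30 (8 h replicate 3 left out) and 3.04 (control replicate 1 left out). Ncaph, the kleisin subunit of condensin I, was counted 11, 5 and 11 times in the controls against 24, 75 and 17 times after 8 h. Its groups did not overlap, at 0.979 to 1.94 CPM against 2.43 to 5.56 CPM, and its log2 ratio was 1.46 ± 1.31 (SE; edgeR adjusted p = 0.774). Ncapd2, another subunit, stood at a log2 ratio of 1.87 ± 1.82 (SE), and at -0.99 without 8 h replicate 3. Smc4, the partner ATPase of Smc2, had 2 to 19 counts and a log2 ratio of -0.08 ± 1.09 (SE), and 0.06 on plain library totals. It was also above 0 without 8 h replicate 3 (0.30), control replicate 1 (0.21) or control replicate 3 (0.15).

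Levels also differed between rows of genes whose proteins are partners or alternatives in one step. With Actb at no more than 5 counts and Gapdh at no more than 11, a row with few counts need not mean low expression. Per kilobase of transcript and averaged over the 6 libraries, the alternative B-type cyclins Ccnb2 and Ccnb1 stood at 577 and 0.0187 CPM, with 61133 and 3 counts in all. Smc2 and Smc4, which form 1 heterodimer, stood at 200.1 and 0.283 CPM per kilobase, and the ratio of their counts ran from 89.2 to 1867 between libraries. Bub1b stood at 20.8 and Bub3 at 0.556 CPM per kilobase. Nuf2 and Ndc80, which pair in a coiled coil, were closer, at 48.8 and 11.9 CPM per kilobase, yet the ratio of their counts ran from 0.211 in control replicate 1 to 15.9 in control replicate 2. The order of levels depended on the group. In controls the highest means were those of Ube2c, at 1132 CPM per kilobase and carried by control replicate 2, Nusap1, at 296, and Mad2l1, at 190.0. At 8 h they were those of Ccnb2, at 1078 CPM per kilobase, Plk1 (450), Aurka (395), Mad2l1 (342) and Smc2 (335), while Ube2c stood at 149.

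**Figure D4:**
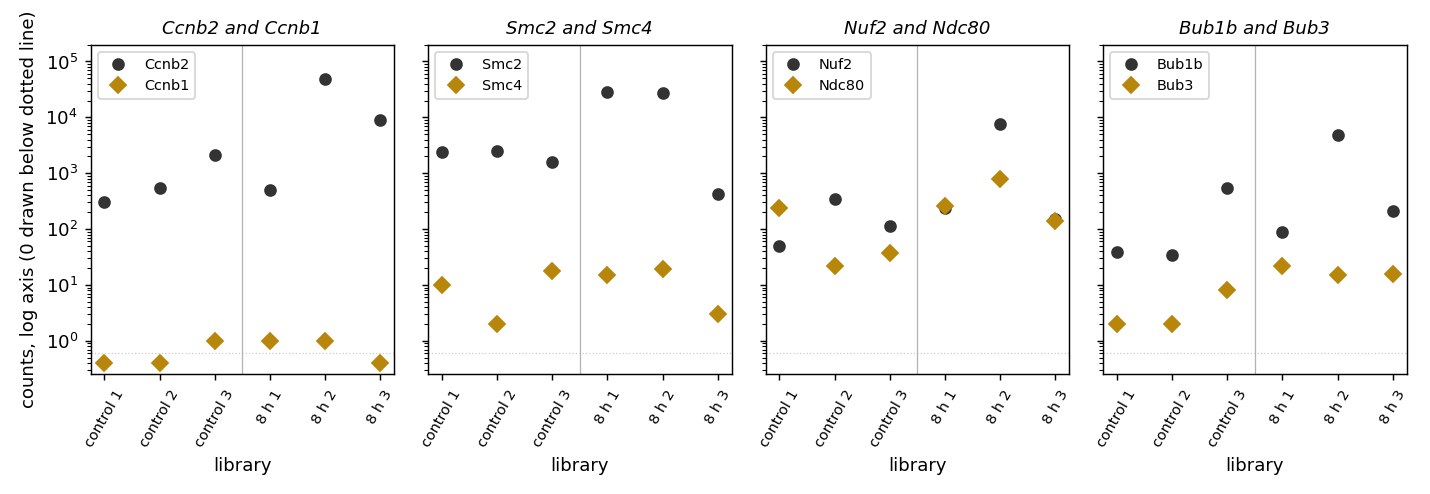
Counts on a log y axis in each library (x axis) for 4 pairs of genes whose proteins are partners or alternatives, with a line between controls and 8 h. Ccnb1 has at most 1 count where Ccnb2 has 300 to 48641, and Smc4 at most 19 where Smc2 has 429 to 28002. Few counts in a row need not mean low expression.

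Summed over the 38 rows, mitosis genes took 0.138%, 1.07% and 0.158% of the counts of controls 1 to 3 and 0.834%, 1.09% and 1.001% of those of 8 h replicates 1 to 3. Control replicate 2 thus lay within the range of the 8 h libraries, while the other controls lay well below it. The means were 0.455 ± 0.532% (SD, n = 3) and 0.975 ± 0.130% (SD, n = 3). The difference of 0.519 percentage points was 0.218 without Ccnb2 and Smc2, the 2 rows highest at 8 h, and 0.827 without control replicate 2. The genes behind a similar sum differed between libraries. Ube2c and Nusap1 made up 61.0% of the sum in control replicate 2, Smc2 and Mki67 54.6% in 8 h replicate 1, Ccnb2 and Smc2 51.3% in 8 h replicate 2, and Aurka and Ccnb2 32.4% in 8 h replicate 3. By CPM, 30 of the 38 rows had their highest library at 8 h, 10 in each replicate, 7 in control replicate 2, 1 in control replicate 1 and 0 in control replicate 3. Of the 29 tested genes, 5, 8 and 9 were highest in 8 h replicates 1 to 3 and 6 in control replicate 2. Among all tested rows these shares were 17.5%, 18.3% and 15.6% for 8 h replicates 1 to 3 and 15.0% for control replicate 2. In rows under the filter the highest library can rest on a few counts.

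**Figure D5:**
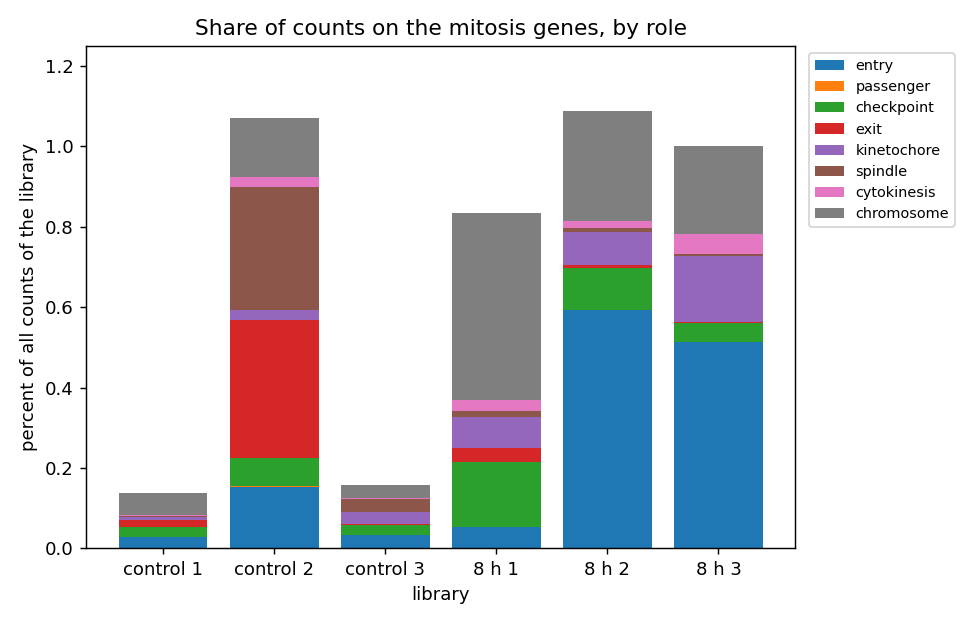
Percent of all counts of a library (y axis, from 0) on the mitosis genes, stacked by role, for each of the 6 libraries (x axis). Control replicate 2, at 1.07%, reaches the height of the 8 h libraries through genes of anaphase onset (Ube2c) and of the spindle (Nusap1), while entry genes fill most of 8 h replicates 2 and 3.

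Other genes of the same process were counted in the same way. Of 112 further mitosis symbols, 83 had a row and 51 were tested, 30 with a fold change above 0 and 21 below, with a median of 0.53. None passed edgeR's test, and 3 had an unadjusted p under 0.05, all higher at 8 h. All 8 h libraries lay above the controls for 4 of the 51 and below them for 2, against 5.72% and 5.08% of all tested rows. Among all tested rows 51.3% had a fold change above 0, and 4.51% were higher and 4.02% lower at that unadjusted p, so the further mitosis genes lay near the background. Mastl, the Greatwall kinase that keeps phosphatase PP2A off mitotic substrates, was counted 1, 2 and 5 times in the controls against 18, 23 and 20 times after 8 h. Ccnb3, cyclin B3, had 1, 3 and 7 against 33, 72 and 10, and Nek9, a kinase of spindle assembly, 43, 60 and 83 against 4492, 182 and 162. Their log2 ratios were 2.63 ± 1.20, 2.87 ± 1.32 and 4.37 ± 2.07 (SE), with an edgeR adjusted p of 0.538 to 0.544, and that of Nek9 was 1.03 without 8 h replicate 1.

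Transcriptional regulators of mitotic genes were tested for 10 of 17 rows, and 0 passed. A fold change above 0 was fitted for 7 of the 10, against 51.3% of all tested rows. Foxm1, the forkhead activator of G2 genes, had 0 to 4 counts and was not tested. Mybl2 (B-Myb), of the same activator complex, was counted 9, 8 and 122 times in the controls against 47, 355 and 17 times after 8 h, which gave a log2 ratio of 1.27, -0.27 without 8 h replicate 2 and 2.84 without control replicate 3. E2f4, of the repressive DREAM complex, had 25, 10 and 38 counts against 71, 789 and 255, and a log2 ratio of 3.39 (edgeR adjusted p = 0.618). All its 8 h libraries lay above the controls, 1 of the 10 tested regulators, against 5.72% of all tested rows. A list of 42 DNA replication genes, of which 28 of 39 rows were tested, had 24 fold changes above 0, against 51.3% of all tested rows. Its median was 1.53, close to the 1.46 of the mitosis genes. No difference between these lists was tested.

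Matches to the oligonucleotide's seed were searched in the 3' UTRs of the list. The mature strand of miR-155, from RefSeq (GRCm38.p6, chr16:84714143-84714165, plus strand), is shown with its seed, bases 2 to 8, in capitals.
mmu-miR-155-5p: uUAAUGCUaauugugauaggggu
Among 3' UTRs, taking the longest that GENCODE M21 lists for a gene, 3 of the 41 genes held a match to the seed, Cdk1, Mad2l1 and Kif20a, or 7.32%. All 3 were among the 29 tested genes (10.3%), and of 7941 tested genes with such a UTR 7.64% held one. Matches to all but base 8 of the seed that are followed by an A were also counted. With them the 29 genes stayed at 3 (10.3%), and the tested genes stood at 11.5%. The matches of Cdk1 and Mad2l1 are shown on the transcript strand within 30 bases, with the matching bases in capitals.
Cdk1 (match at chr10:69336225-69336231, minus strand): taaagggttacAGCATTAggagggttgaca
Mad2l1 (match at chr6:66545160-66545166, plus strand): gagagaaattcAGCATTAgctattacataa
Mad2l1 (match at chr6:66546493-66546499, plus strand): acattttaacaAGCATTAttataggttttg
The log2 ratios of the 3 genes, given above, were -0.54, 0.85 and 0.79, each smaller than its standard error. The UTR searched for Mad2l1 is 6802 bases long, longer than the 1725 bases of the transcript matched to its row. Both of its matches lie past the end of the RefSeq coordinates of that row (chromosome 6, 66535221 to 66541107). The counted transcript of Mad2l1 therefore does not hold them. For Kif20a the UTR searched is 1930 bases long and the counted transcript 3107 bases. The matches of Kif20a and Cdk1 lie within the RefSeq coordinates of their rows. Whether the counted transcripts of these genes hold them was not tested.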

How the data were processed

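RNA of mouse CD4+ T cells was sequenced as single reads of 50 bases from TruSeq libraries, per the series' design text. The authors deposited whole-number read counts for 13177 RefSeq accessions in 6 libraries. The submitters' processing notes list Bowtie, R 3.4.2 and GRCm38 without a role. The counting program, its use of strand and of multiply mapping reads, and row filters are unknown here, so overlapping or near-identical genes are uncertain. Accessions were named through RefSeq GRCm38.p6 (12827) and GENCODE M21 (47), and 303 stayed unnamed. Transcript lengths came from GENCODE M21.

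Groups were compared over all rows passing filterByExpr (8308) with edgeR 4.0.16 in R 4.3.3, by TMM scaling and the robust, two-sided quasi-likelihood F test (default settings), with Benjamini-Hochberg adjustment over all rows tested. The common dispersion was 1.49. DESeq2 1.42.0 and limma 3.58.1 served as alternatives, as did other scalings, filters, a replicate block and leaving out each library. Standard errors were derived by dividing the size of the log2 ratio by the root of the F statistic. Scripts were tested on simulated data.

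The genes, lists and tests were chosen with earlier results of these data known. Counts in every library are given for genes among the 10 largest fold changes, without overlap between groups, or among the 6 highest mean CPM. Other members are given by fold change or range, and their counts, where printed, were chosen after their values were seen. Of the other mitosis genes and regulators, those with an unadjusted p under 0.05 and Foxm1, Mybl2 and E2f4 are named.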

Additional observations from a re-analysis of the deposited data

How the results depend on the processing

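Among 429 alternative values of the 29 tested genes, 409 kept their direction and their side of the threshold, 3 passed it (Plk1, Ttk and Anln under DESeq2) and 17 turned direction, in 11 genes. Without control replicate 2 the log2 fold change turned for Cdk1 (0.46), Cdc25b (0.76), Aurkb (0.53) and Ube2c (0.46). Without 8 h replicate 3 it turned for Cdc25c (-2.06), Cenpe (-1.16), Ncapd2 (-0.99) and Smc4 (0.30), and without 8 h replicate 2 for Bub1b (-0.031), Nuf2 (-0.25), Prc1 (-0.65) and Aurkb (0.06). Without control replicate 1 it turned for Prc1 (-0.11) and Smc4 (0.21), without control replicate 3 for Smc4 (0.15), and on plain library totals for Smc4 (0.061). With replicate number as a block, Cenpe stood at -0.029. Over leave-one-out fits these genes ranged from -0.93 to 0.46 (Cdk1), -3.53 to 0.76 (Cdc25b), -2.06 to 3.33 (Cdc25c), -1.06 to 0.53 (Aurkb), -0.03 to 4.28 (Bub1b) and -4.38 to 0.46 (Ube2c). The others ranged from -1.16 to 3.36 (Cenpe), -0.25 to 4.43 (Nuf2), -0.65 to 0.88 (Prc1), -0.49 to 0.30 (Smc4) and -0.99 to 3.13 (Ncapd2). Mybl2, a regulator outside the 29 genes, ranged from -0.27 to 2.84. DESeq2 called 399 genes in all and 3 of the mitosis genes, where edgeR called 0 of either under each scaling, filter, block and left-out library. The number of mitosis genes above 0 was 19 of 23 with a mean of at least 5 CPM, 30 of 38 without a filter, 22 with the block and 21 to 27 without each library, an alternative chosen after seeing the data. The number whose groups did not overlap, higher at 8 h, was 3 under every scaling, against 5.72% of all tested rows under TMM. Without each library it was 4 to 8 (8 without control replicate 2 or 8 h replicate 2), where fewer libraries overlap more rarely. The lower number was 0 under every scaling, against 5.08%, and 0 to 1 without each library. The share of all tested rows was not computed with a library left out, so these last counts have no background to be judged by. After removing group means, libraries sharing a number correlated at -0.0107, 0.0151 and -0.0039, so the numbers were not taken to pair the samples, and the block left the count of calls at 0. The cause of these changes was not tested.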
